A study of Mus musculus with 16 samples.

Results

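Whole ovaries collected at ovulation from mice given PT-2385 were compared with ovaries from mice given vehicle, over 8 of the 16 libraries of a study that also sampled kidney. The 8 were chosen by their labels alone: 4 PT-2385 libraries and 4 vehicle libraries, with the tissue labelled ovary. All mice were female, wild type (WT), of the CBAF1 strain and 21 days old. Intraperitoneal injections were given every 12 h for 4 days, with PT-2385 at 7.5 mg/kg in saline for one group and 5% DMSO in saline for the other. Within those days every mouse, controls included, also received 5 IU of PMSG for 48 h and then 5 IU of hCG, and tissue was taken 13 h after hCG. The labels do not say whether the PT-2385 injections also held DMSO, how many animals entered a library, or whether each library was made from its own animal. A p-value below therefore measures only the spread between these samples, which may be technical. The immature ovary driven by PMSG and hCG is a model of a synchronised, pharmacological ovulation.

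PT-2385 binds the HIF-2α protein, which is encoded by Epas1, and blocks its pairing with ARNT, the shared partner of the HIF factors. HIF-α proteins are removed by prolyl hydroxylases when oxygen is plentiful and switch on genes of glycolysis, vessel growth and iron handling when it is not. In the ovulating follicle, luteinising hormone (here mimicked by hCG) switches on EGF-like ligands, the progesterone receptor, prostaglandin synthesis and a hyaluronan matrix around the oocyte, and the ruptured follicle then becomes a vascular, steroid-producing corpus luteum. The title of the series asks how Epas1 bears on gene expression induced by hCG in granulosa cells. The results also turn on interferon-stimulated genes, which encode antiviral enzymes and sensors and are switched on through the interferon receptors, STAT proteins and IRF factors that bind a repeated GAAA sequence.

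Each value is a count of read pairs per gene, and depth ran from 29514555 to 33577065 assigned pairs in the vehicle libraries and from 17245769 to 31968066 in the PT-2385 libraries. Levels are given as CPM, the counts scaled to a common library total, after TMM scaling, which corrects for differences in library composition. Correlations of log2 CPM between the libraries were all at least 0.983, and no pair held near-identical counts. The first principal component carried 34.3% of the variance and placed vehicle replicates 1, 2 and 4 at -19.2, -40.4 and -12.5 and the PT-2385 libraries between 2.80 and 25.7. Vehicle replicate 3, whose deposited file carries the number 5, lay at 27.7 on this component, beyond all 4 PT-2385 libraries, and at 32.3 on the second component (18.6% of the variance).

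**Figure D1:**
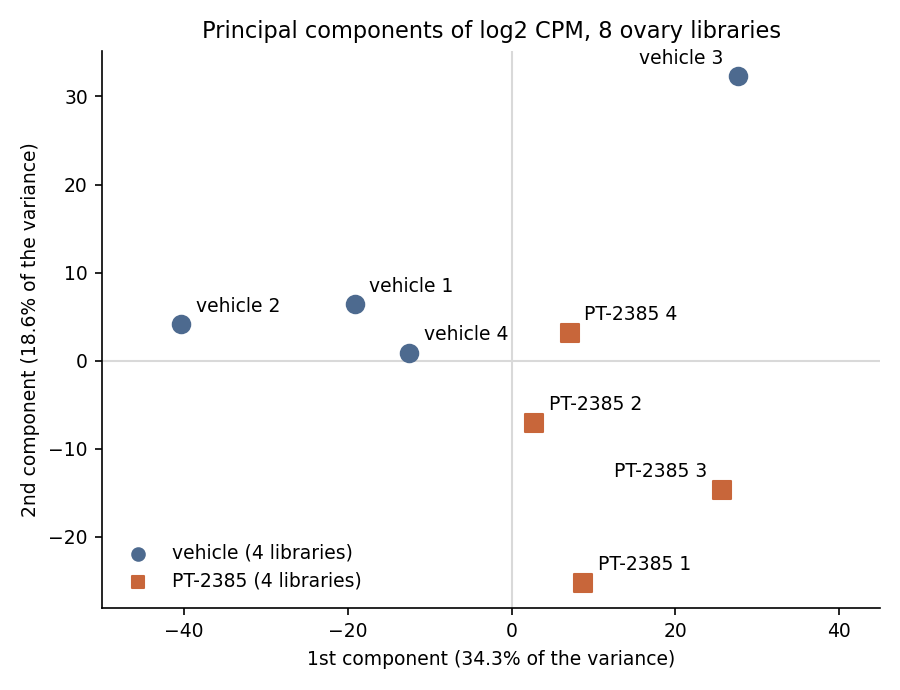
Principal component scores of the 8 ovary libraries from log2 CPM, with the first component on the horizontal axis and the second on the vertical axis (unitless scores) and 1 point per library. Vehicle replicates 1, 2 and 4 sit at negative scores of the first component, while vehicle replicate 3 sits at 27.7, on the side of the PT-2385 libraries and apart from them on the second.

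Ovarian identity was clear in every library. Cyp11a1, which makes pregnenolone from cholesterol in luteinising cells, stood at 5901, 8212, 5421 and 7175 CPM in vehicle replicates 1 to 4 and at 6115, 6002, 5821 and 6013 CPM in PT-2385 replicates 1 to 4. Bmp15, a growth factor of the oocyte, stood at 106, 69.6, 46.6 and 70.3 CPM and at 71.8, 67.7, 62.7 and 84.8 CPM. Bmp15 was highest in vehicle replicate 1 and lowest in vehicle replicate 3, and all 12 oocyte markers measured followed that order within the vehicle group. None of the 18 marker lists of ovarian and other cell types had a member called by edgeR with all 8 libraries. Granulosa markers summed to between 3322 and 3510 CPM in the vehicle libraries and to between 3078 and 4093 CPM with PT-2385.

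Vehicle replicates 1, 2 and 3 each carried a mark of their own. Vehicle replicate 1 held 1005 counts of Kap, an androgen-regulated kidney tubule protein, and 324 counts of Slc34a1, the phosphate carrier of the proximal tubule, while the other 7 libraries held at most 24 and 3. Umod, the uromodulin gene of the thick ascending limb, followed the same pattern, with 122 counts in vehicle replicate 1 and at most 4 elsewhere. Kidney transcripts were present in that ovary library and near 0 in the rest. Vehicle replicate 2 held 26.1 CPM of the oviduct gene Ovgp1 (38.0% of whose exon bases overlap another gene model), against 0.636 to 3.01 CPM elsewhere. It also held 528 counts of the adipocyte gene Cfd, against 4 to 128 in the others.

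Vehicle replicate 3 departed in nuclear, mitochondrial and erythroid transcripts. Malat1, a nuclear noncoding RNA, stood at 1354, 1899, 640 and 1418 CPM in vehicle replicates 1 to 4 and at 1425, 1178, 1084 and 1105 CPM with PT-2385, so vehicle replicate 3 was the lowest of all 8. Mest, an imprinted gene whose exons overlap another model over 32.9% of their bases, stood at 23, 22.01, 6.63 and 21.7 CPM and at 24.9, 21.1, 18.6 and 25.3 CPM, again with vehicle replicate 3 alone below the rest. The mitochondrial transcript mt-Nd1 stood at 4978, 7158, 3035 and 4994 CPM and at 5104, 4305, 3915 and 3958 CPM. All 15 mitochondrial transcripts were lowest in vehicle replicate 3 and highest in vehicle replicate 2 among the vehicle libraries, and mitochondrial reads made up 2.33% of vehicle replicate 3 against 2.89% to 4.45% of the others. Relative to the mean of the other 3 vehicle libraries, its median log2 departure was -0.37 over 75 lincRNAs and 0.05 over 11333 protein-coding genes of at least 5 CPM. Erythroid markers summed to 202 CPM in it, to 91.0 to 122 CPM in the other vehicle libraries and to 101 to 149 CPM with PT-2385, and its median departure over the 7 tested was 1.10. In the PT-2385 group, replicate 1, the shallowest library, departed with gene length: its departures had a Spearman rho of -0.384 with exon length over those protein-coding genes, a description across genes that share a library. The part of these departures in the results below was not tested.

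With all 8 libraries, 9 of 18125 tested genes (0.0497%) differed between the groups by edgeR's quasi-likelihood test at a Benjamini-Hochberg adjusted p under 0.05. Of these, 8 (0.0441% of genes tested) were lower with PT-2385 and 1 (0.00552%) was higher. Of the 9, the 8 described here are 7 that fell and 1 that rose. The 7 encode antiviral enzymes and sensors, or lie beside one, and the gene that rose was the phagosomal metal transporter Slc11a1. Without vehicle replicate 3, 1060 of 18481 tested genes (5.74%) were called, 582 (3.15%) of them higher and 478 (2.59%) lower, and the 9 genes were all among them. Without vehicle replicate 2 the count was 58, and without PT-2385 replicate 4 it was 56, again with all 9 included. Without PT-2385 replicate 1 a single other gene was called, and 0 genes were called when the library left out was vehicle replicate 1, vehicle replicate 4 or, in the PT-2385 group, replicate 2 or 3. In these 4 fits edgeR still gave 725, 1004, 924 and 598 genes higher, and 1238, 1231, 1241 and 727 lower, at an unadjusted p under 0.05. With all 8 libraries, DESeq2 called 293 genes and limma-voom 3. Vehicle replicate 3 was seen to lie apart in these same data. A gene said below to rise or fall without it is therefore described for that fit, which gives no separate support.

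The promoters of several of the genes that fell hold the paired GAAA letters to which interferon-regulated factors are known to bind. The motif searched was GAAANNGAAA on both strands, from 250 bases before to 50 after the annotated start, in RefSeq promoters of GRCm38.p6. It was present for 1079 of 27025 genes with a promoter there (3.99%) and for 466 of the 12365 tested genes that matched (3.77%). Of the 9 called genes 5 had a promoter, and Ddx60, Eif2ak2 and Trim34a held the motif while Cmpk2 and Slc11a1 did not. Of the 25 interferon-induced effectors with a promoter, 12 (48.0%) held it. That list was made of genes known to be interferon-induced, so a high share can follow from the choice of list alone. The sequences below are shown because they carry the motif in genes that fell with all 8 libraries (Ddx60, Eif2ak2, Trim34a) or without vehicle replicate 3 (Ifit3, Rsad2). Capitals mark the match, a TTTC form is the motif on the opposite strand, and each runs 5′ to 3′ on the strand of the gene. For Ddx60, Ifit3 and Rsad2 they are the 250 bases before the start, at chr8:61927837-61928086 (plus strand), chr19:34583279-34583528 (plus strand) and chr12:26456453-26456702 (minus strand). For Eif2ak2 and Trim34a they are 30 bases after the start, with the match at bases 19 to 28 and 11 to 20 counted from it, at chr17:78882535-78882564 (minus strand) and chr7:104244457-104244486 (plus strand).
Ddx60: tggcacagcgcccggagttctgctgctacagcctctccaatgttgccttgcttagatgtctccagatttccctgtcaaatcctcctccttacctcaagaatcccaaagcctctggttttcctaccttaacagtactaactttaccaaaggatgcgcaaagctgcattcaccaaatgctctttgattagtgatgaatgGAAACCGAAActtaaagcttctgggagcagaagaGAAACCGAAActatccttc
Ifit3: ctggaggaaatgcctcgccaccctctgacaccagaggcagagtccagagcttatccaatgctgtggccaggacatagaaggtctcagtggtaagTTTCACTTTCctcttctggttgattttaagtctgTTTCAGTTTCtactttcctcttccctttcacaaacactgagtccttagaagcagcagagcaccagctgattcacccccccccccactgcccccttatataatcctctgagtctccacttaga
Rsad2: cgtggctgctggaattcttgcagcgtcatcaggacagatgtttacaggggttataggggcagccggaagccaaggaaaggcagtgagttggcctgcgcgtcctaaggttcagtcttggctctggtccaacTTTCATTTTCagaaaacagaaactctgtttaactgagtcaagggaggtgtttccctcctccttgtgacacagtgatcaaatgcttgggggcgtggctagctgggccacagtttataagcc
Eif2ak2: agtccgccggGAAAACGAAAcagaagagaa
Trim34a: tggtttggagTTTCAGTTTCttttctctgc
A match describes these letters only. Ddx60 held 2 copies within 53 bases before its start, Ifit3 held 2 on the opposite strand farther upstream, and Rsad2 held 1.

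Eif2ak2 encodes PKR, a kinase that binds double-stranded RNA and halts translation. Its levels were 50.8, 44.5, 53.3 and 56.8 CPM in vehicle replicates 1 to 4 and 27.4, 30.04, 26.4 and 33.96 CPM in PT-2385 replicates 1 to 4. Every PT-2385 library lay below every vehicle library, and vehicle replicate 3 was among the higher vehicle values. The gene (GRCm39 chromosome 17, 79159993 to 79190002, minus strand) had a log2 fold change of -0.80 and fell (SE 0.094, edgeR adjusted p = 0.0186). Without vehicle replicate 3 the log2 fold change was -0.78 (edgeR adjusted p = 0.0097), and over the 22 alternatives it ran from -0.88 to -0.74, with adjusted p from 1.94e-08 to 0.125. Gm6548, a processed pseudogene on the same strand at chromosome 17, 79158221 to 79159385 just beyond the end of Eif2ak2, was at 19.4, 16.9, 19.1 and 19.6 CPM in vehicle and 11.2, 11.1, 8.92 and 12.1 CPM with PT-2385, also without overlap. It fell by 0.79 (SE 0.10, edgeR adjusted p = 0.023).

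Ddx60, an RNA helicase that assists the RIG-I sensors, was measured at 8.77, 7.37, 7.48 and 10.9 CPM in the vehicle libraries and at 3.66, 3.39, 2.87 and 4.55 CPM in the PT-2385 libraries. The groups were well apart, and PT-2385 replicate 4 was the highest of its group. The gene (chromosome 8, 62381123 to 62491278) fell to a log2 fold change of -1.24 (SE 0.17, edgeR adjusted p = 0.0304). Trim34a, a member of the TRIM family of antiviral ubiquitin ligases, was at 5.21, 4.66, 4.79 and 5.29 CPM with vehicle and 2.07, 2.43, 1.66 and 2.32 CPM with PT-2385. It fell by 1.22 (SE 0.15, edgeR adjusted p = 0.0186). Its exons share 23.5% of their bases with another model, and TRIM34 copies lie side by side on chromosome 7, so its count is uncertain.

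Parp14, an ADP-ribosyltransferase of the interferon response, was at 25.04, 19.7, 26.8 and 24.3 CPM with vehicle and 12.2, 12.9, 11.8 and 15.99 CPM with PT-2385. Cmpk2, a mitochondrial nucleotide kinase next to Rsad2 in the genome, was at 14.2, 9.78, 10.8 and 12.4 CPM and 5.61, 5.63, 4.36 and 6.99 CPM. Ifi204, a DNA-binding member of the interferon-inducible p200 family, was at 12.7, 15.9, 14.6 and 17.5 CPM and 9.21, 9.02, 9.003 and 9.91 CPM. None of these 3 genes overlapped between the groups, and PT-2385 replicate 4 was the highest PT-2385 value for each. Parp14 (chromosome 16, 35653244 to 35691914) fell by 0.85 (SE 0.12, edgeR adjusted p = 0.0304). Cmpk2 (chromosome 12, 26519203 to 26529836) fell by 1.05 (SE 0.15, edgeR adjusted p = 0.0395). Ifi204 (chromosome 1, 173574859 to 173594485) fell by 0.70 (SE 0.11, edgeR adjusted p = 0.0461), and reads of its close relatives in the same cluster may not be separable.

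Slc11a1, which pumps iron and manganese out of the phagosome of macrophages and neutrophils, was the gene that rose. Its levels were 23.4, 24.5, 27.4 and 30.5 CPM in the vehicle libraries and 41.8, 36.4, 46.9 and 41.3 CPM in the PT-2385 libraries. The lowest PT-2385 value lay above the highest vehicle value. The gene (chromosome 1, 74414354 to 74425221) rose by 0.65 on the log2 scale (SE 0.097, edgeR adjusted p = 0.0395), and by 0.67 without vehicle replicate 3 (edgeR adjusted p = 0.0149). Over the 22 alternatives its log2 fold change ran from 0.58 to 0.73 and its adjusted p from 1.62e-05 to 0.223. Of the 17 tested members of the iron and phagosome list 5, Slc11a1 included, were positive and 12 negative, and the median log2 fold change was -0.04. At an unadjusted p under 0.05, 2 were higher (against 5.71% of all genes tested) and 4 lower (against 7.39%), and Slc11a1 was the single call. Macrophage and monocyte markers summed to 150 to 216 CPM with vehicle and to 137 to 178 CPM with PT-2385, with 11 of 13 negative in sign, 2 lower at an unadjusted p under 0.05 and none called by edgeR or DESeq2. Neutrophil markers summed to 7.57 to 17.6 CPM and to 10.1 to 14.0 CPM. In whole ovary, fewer cells of a type and less RNA per cell cannot be told apart.

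**Figure D2:**
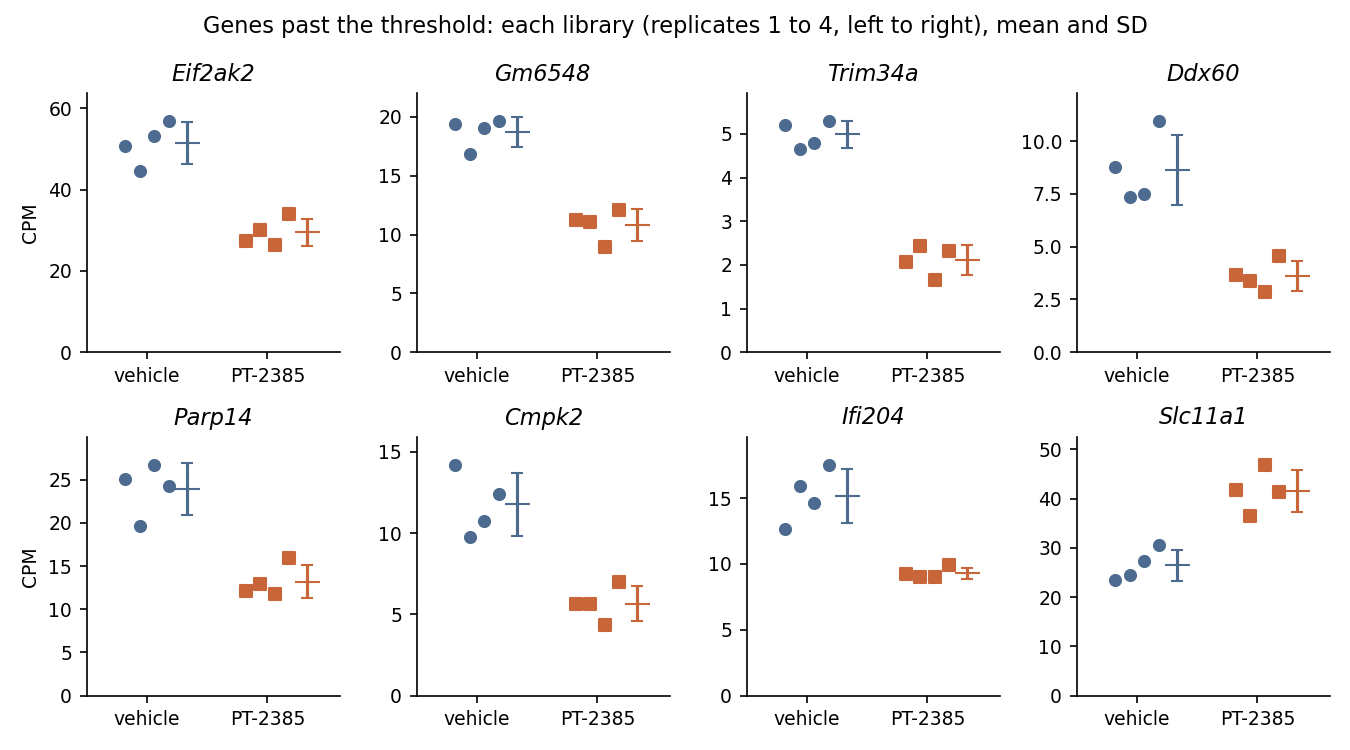
CPM (vertical axis, from 0) of the 8 called genes that are described, 1 point per library with replicates 1 to 4 from left to right, and the mean with its SD beside each group (n = 4). For each gene the 4 PT-2385 points lie on one side of the 4 vehicle points, below them for 7 genes and above them for Slc11a1.

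The interferon-induced effectors, enzymes and adaptors that act against viruses inside the cell, were negative throughout. All 34 members tested had a negative sign, and 4 were called lower (against 0.0441% of all genes tested) and none higher. At an unadjusted p under 0.05, 31 were lower (against 7.39% of all genes tested). The groups did not overlap for 24 members (against 684 of all tested genes lower without overlap, 3.77%). Their median log2 fold change was -0.86, against 0.00 over all genes tested, and it stayed between -1.08 and -0.78 when any 1 library was left out. DESeq2 called 25 of them lower, among 188 lower over all genes, and limma-voom 2, among 3. The 4 called with edgeR are among the genes already described. Without vehicle replicate 3 edgeR called 20 of the 34 lower (against 2.59% of all genes tested in that fit), with a median of -0.81. The list was assembled with earlier results of these data known.

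The IFIT genes, whose proteins bind viral RNA with foreign 5′ ends, had some of the lowest ratios. Ifit3 was at 6.83, 4.04, 5.03 and 7.66 CPM in vehicle replicates 1 to 4 and at 1.48, 2.04, 1.17 and 2.57 CPM in PT-2385 replicates 1 to 4. Ifit3b was at 2.04, 0.848, 1.64 and 1.97 CPM and 0.236, 0.386, 0.242 and 0.596 CPM, and Ifit1 at 10.7, 6.88, 10.6 and 11.5 CPM and 3.07, 2.39, 2.18 and 6.46 CPM. The groups did not overlap for any of the 3, vehicle replicate 2 was the lowest vehicle library each time and PT-2385 replicate 4 the highest PT-2385 library. Their log2 fold changes were -1.64, -2.04 and -1.43, which missed the threshold (edgeR adjusted p = 0.0565, 0.0605 and 0.124). Without vehicle replicate 3, Ifit3 and Ifit3b fell (edgeR adjusted p = 0.0212 and 0.0257) and Ifit1 did not pass (0.0803). Ifit3 and Ifit3b are near copies, so reads may be split between them.

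Rsad2, the antiviral enzyme viperin, was at 8.05, 6.78, 5.603 and 10.3 CPM with vehicle and 3.31, 3.62, 1.61 and 2.45 CPM with PT-2385. Usp18, which strips ISG15 from proteins and damps interferon signalling, was at 7.18, 3.49, 6.27 and 8.38 CPM and 2.303, 1.89, 1.78 and 3.13 CPM. Isg15 itself, the ubiquitin-like modifier, was at 12.6, 5.22, 12.2 and 14.2 CPM and 4.25, 4.13, 3.07 and 6.898 CPM. Rsad2 and Usp18 were without overlap between the groups, while for Isg15 vehicle replicate 2 lay below PT-2385 replicate 4. None of the 3 passed with all libraries (edgeR adjusted p = 0.0583, 0.0748 and 0.213). Without vehicle replicate 3, Rsad2 fell by 1.63 (edgeR adjusted p = 0.0141) and Usp18 fell as well (0.0428), while Isg15 did not pass (0.151).

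Further effectors had groups that did not overlap. Xaf1, a partner of the apoptosis inhibitor XIAP, was at 12.97, 8.12, 12.5 and 15.6 CPM with vehicle and 4.78, 4.51, 4.44 and 7.37 CPM with PT-2385. Oasl2, of the oligoadenylate synthetase family, was at 50.3, 36.2, 53.3 and 56.8 CPM and 26.6, 23.4, 24.6 and 33.5 CPM. Bst2, the tetherin that holds budding virus at the membrane, was at 137, 136, 118 and 166 CPM and 92.9, 92.6, 78.1 and 111 CPM. All 3 were without overlap, with log2 fold changes of -1.20, -0.86 and -0.57, and fell without vehicle replicate 3 (edgeR adjusted p = 0.0411, 0.0455 and 0.0261). Herc6, an ISG15 ligase, showed the same pattern, at 13.7, 11.97, 12.2 and 13.6 CPM and 7.203, 8.45, 8.196 and 9.31 CPM (log2 fold change -0.62), although 26.6% of its exon bases overlap another model. Samhd1, which degrades nucleotides, differed by less: 70.1, 74.6, 70.2 and 73.8 CPM with vehicle and 55.8, 58.8, 56.9 and 65.3 CPM with PT-2385, a log2 fold change of -0.28. Ifitm3, a membrane protein that blocks viral entry, overlapped between the groups at 144, 111, 201 and 168 CPM and 130.4, 123, 127 and 145 CPM, with a log2 fold change of -0.25 (edgeR adjusted p = 0.511). Lgals3bp, a secreted glycoprotein, ranged widely, at 123, 90.8, 137 and 149 CPM and 68.7, 55.5, 48.9 and 103 CPM.

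Sensors of foreign nucleic acid were mostly negative in sign. Lists could share members, so the counts of this list may include genes already counted among the effectors. Of 19 tested, 16 were negative in sign, 3 were called lower (against 0.0441% of all genes tested) and none higher, 11 were lower at an unadjusted p under 0.05 (against 7.39%), and 8 were lower without overlap between the groups (against 3.77%). The median was -0.48, and ran from -0.56 to -0.43 when 1 library was left out. DESeq2 called 8 lower and limma-voom 1, and edgeR called 8 lower without vehicle replicate 3 (against 2.59% of all genes tested in that fit). Ifih1, the MDA5 sensor of long double-stranded RNA, was at 21.4, 17.1, 23.5 and 22.6 CPM with vehicle and 11.04, 9.29, 8.64 and 15.2 CPM with PT-2385. Ddx58, the RIG-I sensor, was at 46.6, 32.5, 40.8 and 46.7 CPM and 22.4, 23.6, 24.7 and 31.8 CPM, and Dhx58, the LGP2 helicase that tunes them, at 6.28, 4.76, 4.79 and 5.83 CPM and 4.25, 2.97, 2.301 and 3.104 CPM. For these 3 helicases the groups did not overlap, and all 3 fell without vehicle replicate 3 (edgeR adjusted p = 0.0385, 0.0449 and 0.0263), with log2 fold changes of -0.86, -0.70 and -0.86. Adar, which edits double-stranded RNA so that the sensors ignore it, was at 58.4, 51.2, 63.9 and 64.1 CPM and 42.8, 44.8, 41.3 and 48.2 CPM, and 22.8% of its exon bases overlap another model.

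The transcription factors of the pathway were measured next to their receptor. Irf9, the DNA-binding part of the complex that interferon activates, was at 43.7, 32.8, 42.5 and 46.1 CPM with vehicle and 26.8, 24.2, 26.8 and 31.9 CPM with PT-2385, and its partner Stat2 at 82.7, 67.6, 68.5 and 79.7 CPM and 55.9, 51.9, 48.6 and 62.4 CPM. Irf7, the master inducer of type I interferon genes, was at 23.5, 12.5, 23.1 and 27.7 CPM and 11.6, 7.83, 8.28 and 14.7 CPM. Irf9 and Stat2 were without overlap and fell without vehicle replicate 3 (edgeR adjusted p = 0.0351 and 0.025), while Irf7 overlapped through vehicle replicate 2 and PT-2385 replicate 4. Ifnar1, a chain of the type I interferon receptor, was at 126, 124, 131 and 140.2 CPM with vehicle and 139.6, 142, 149 and 138 CPM with PT-2385, a log2 fold change of 0.13 (edgeR adjusted p = 0.41). Over the 18 receptor, STAT and IRF genes tested the median was -0.04 and 7 were positive. With all 8 libraries edgeR called 1 of them lower (against 0.0441% of all genes tested), and it was not Irf9, Stat2, Irf7 or Ifnar1.

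Interferon genes themselves were scarcely counted. Ifng had 0 counts in all 8 libraries. Of 18 type I interferon genes, 12 were at 0 in all 8, the highest count in any library was 5, and the totals were 16 counts over the vehicle libraries and 16 over the PT-2385 libraries. The 2 type III genes summed to 16 and 5. The counts of Ifnl3, 1 of these, were 4, 5, 3 and 4 in the vehicle libraries and 1, 2, 0 and 2 in the PT-2385 libraries, without overlap. No interferon gene passed the filter on low counts, and no test of them is given here. Siglech, a marker of the plasmacytoid dendritic cells that make type I interferon, had 1 to 5 counts in every library. Summed markers of those cells, which include the effector Bst2, were 385 to 428 CPM with vehicle and 349.9 to 379.9 CPM with PT-2385, without overlap and lower. Their score (the median over the 5 tested of log2 CPM relative to the vehicle mean) went the other way, from -0.08 to 0.01 with vehicle and from 0.05 to 0.185 with PT-2385, also without overlap. Of the 5, 3 were positive in sign, the median log2 fold change was 0.07, and 1, Bst2, was lower at an unadjusted p under 0.05. Lymphocyte markers summed to 11.2 to 12.4 CPM and 10.9 to 13.1 CPM. The part of either in the lower effector levels was not tested.

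Genes of antigen presentation by MHC class I were mostly negative, with smaller values. Of 14 genes tested, 13 were negative and the median was -0.15. At an unadjusted p under 0.05, 4 were lower (against 7.39% of all genes tested). None was called by edgeR and DESeq2 called 2 lower. Nlrc5, the activator of MHC class I genes, was at 5.95, 5.02, 5.75 and 6.17 CPM with vehicle and 3.37, 3.47, 2.83 and 4.23 CPM with PT-2385, and Tap1, which loads peptides into the endoplasmic reticulum, at 22.6, 19.3, 23.6 and 26.4 CPM and 17.6, 16.04, 14.98 and 18.97 CPM. B2m, the shared light chain of MHC class I molecules, was at 235, 251, 311 and 273 CPM and 229.9, 217, 229 and 259 CPM, with overlap. Nlrc5 and Tap1 fell without vehicle replicate 3 (edgeR adjusted p = 0.0288 and 0.0455), and B2m had a log2 fold change of -0.20 with all 8 libraries and -0.11 without it.

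Within each group the interferon effectors kept much the same order of libraries. The score of the 34 effectors (the median over members of the log2 CPM relative to the vehicle mean) was 0.10, -0.33, 0.05 and 0.23 in vehicle replicates 1 to 4 and -0.90, -1.04, -1.11 and -0.46 in PT-2385 replicates 1 to 4. Vehicle replicate 2 was the lowest vehicle library for 27 of the 34 genes, and PT-2385 replicate 4 the highest PT-2385 library for 31. The scores of the groups did not overlap, and the gap between vehicle replicate 2 and PT-2385 replicate 4 was smaller than the SD of either group. Summed effector levels were 843 to 1125 CPM with vehicle and 556 to 787 CPM with PT-2385. Vehicle replicate 3 lay inside the vehicle group for these genes, unlike its place on the principal components.

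**Figure D3:**
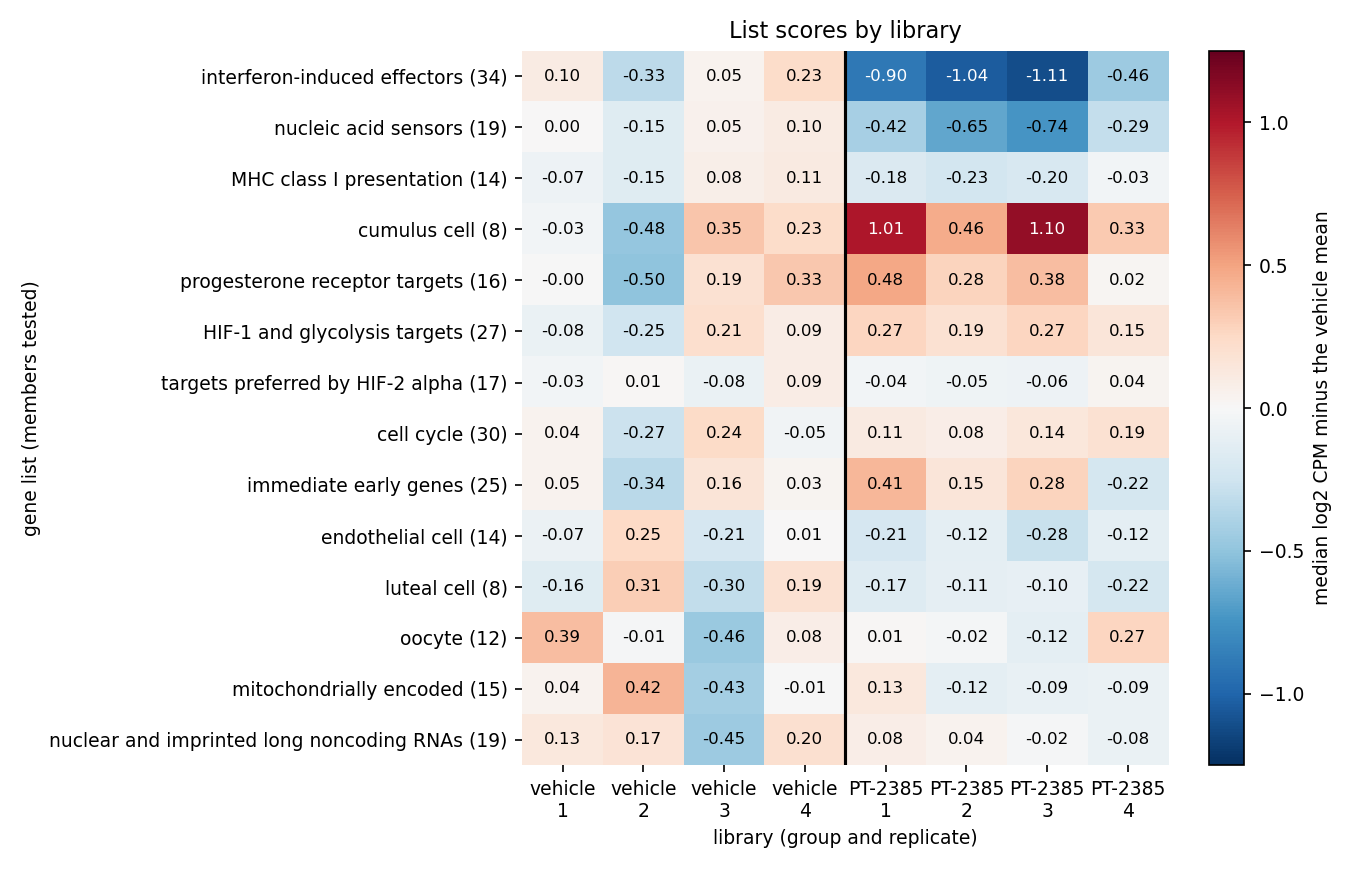
List scores (median over members of log2 CPM relative to the vehicle mean) for the 8 libraries, with gene lists as rows (members tested in brackets), libraries as columns and colour and number as the score. The interferon effector and sensor rows are lower in all 4 PT-2385 columns, the mitochondrial row is lowest in vehicle replicate 3, and the cumulus marker row is highest in PT-2385 replicates 1 and 3.

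Vehicle replicate 3 moved the count of genes that passed more than any other library. Of the 1060 genes called without it, 580 higher and 473 lower ones were also tested with it. Among the 580, the level in vehicle replicate 3 was nearer to the PT-2385 mean than to the mean of the other vehicle libraries for 495 (85.3%), and beyond the PT-2385 mean for 325 (56.0%). Among the 473 it was nearer to the PT-2385 mean for 333 (70.4%). On a scale where 0 is the mean of the other vehicle libraries and 1 the PT-2385 mean, its median position was 1.07 for the higher and 0.79 for the lower genes. The genes were chosen for a gap between the ends of this scale, so selection alone can move a left-out library away from 0. For vehicle replicate 2, the same measure over the genes called without it was -0.26 for 13 higher and 0.44 for 45 lower genes. For PT-2385 replicate 4, with 0 at the mean of the other PT-2385 libraries and 1 at the vehicle mean, it was 1.18 for the 15 higher genes called without it, 11 of them (73.3%) nearer to the vehicle mean, and 0.49 for the 41 lower genes. The limma sample quality weight of vehicle replicate 3 was 0.297, that of vehicle replicate 2 was 0.593, and the others ran from 1.13 to 1.86. The biological coefficient of variation over all genes was 0.0924 without vehicle replicate 3, 0.0992 without vehicle replicate 2 and between 0.116 and 0.123 without any other library.

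**Figure D4:**
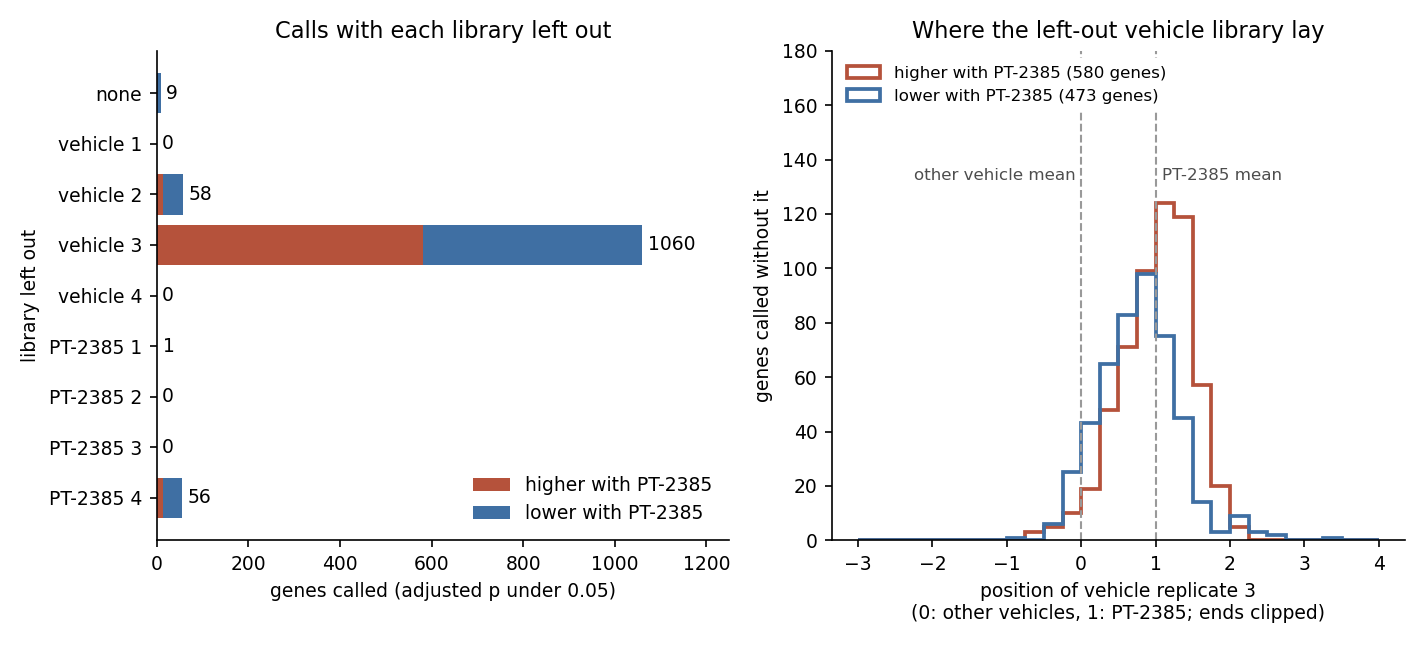
Number of genes called at a Benjamini-Hochberg adjusted p under 0.05 (edgeR) when each library in turn is left out (left, stacked by direction), and the position of vehicle replicate 3 in the genes called without it, from 0 at the mean of the other vehicle libraries to 1 at the PT-2385 mean (right). The count is 1060 without vehicle replicate 3, 58 without vehicle replicate 2, 56 without PT-2385 replicate 4, and 0 or 1 without each of the others, and the histogram of higher genes peaks beyond 1.

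Nfkbia, Nfkb2 and Map3k14 were among the 582 genes that were higher without vehicle replicate 3 (3.15% of those tested). Nfkbia, the inhibitor that holds NF-κB in the cytoplasm and is itself its target, was at 49.9, 45.95, 58.03 and 53.9 CPM in vehicle replicates 1 to 4 and 74.2, 62.6, 74.3 and 67.9 CPM with PT-2385. Nfkb2, the p100 subunit, was at 66.96, 55.8, 89.2 and 69.3 CPM and 95.8, 87.4, 108 and 101 CPM, and Map3k14, the kinase NIK that triggers its processing, at 57.97, 43.3, 88.9 and 69.3 CPM and 114, 91.4, 126 and 105 CPM. Vehicle replicate 3 was the highest vehicle library for all 3, and for Nfkb2 it overlapped the PT-2385 range. Leaving it out therefore widens the gap between the group means of these 3 genes. Without it, Nfkbia rose by 0.48, Nfkb2 by 0.62 and Map3k14 by 0.94 on the log2 scale (edgeR adjusted p = 0.0141, 0.0141 and 0.0337). With all 8 libraries the adjusted p values were 0.0748, 0.178 and 0.209.

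Aqp5, Aqp2 and Adh7 were also among those 582 genes. Aqp5, a water channel, was at 6.21, 6.36, 9.84 and 6.41 CPM with vehicle and 13.6, 11.03, 14.8 and 13.3 CPM with PT-2385, and Aqp2, the vasopressin-regulated water channel, at 15.8, 22.7, 24.2 and 21.4 CPM and 32.3, 33.4, 33.9 and 32.3 CPM. Adh7, an alcohol and retinol dehydrogenase, was at 24.8, 33.98, 41.2 and 30.4 CPM and 55.9, 50.4, 63.8 and 57.9 CPM. None of these overlapped between the groups, and vehicle replicate 3 was the vehicle library nearest to PT-2385 in each. Their log2 fold changes of 0.87, 0.65 and 0.80 missed the threshold (edgeR adjusted p = 0.0605, 0.0583 and 0.0583) and they rose without vehicle replicate 3 (adjusted p = 0.00385, 0.0141 and 0.00827). Aqp2 is also a kidney collecting duct gene, and vehicle replicate 1, the library with kidney transcripts, was the lowest of all 8 for it. The part of those kidney transcripts in its level was not tested.

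Ren1, the protease renin, was at 24.3, 22.8, 39.1 and 31.2 CPM with vehicle and 49.5, 43.6, 46.95 and 51.6 CPM with PT-2385. Tmem45a, a membrane protein, was at 21.2, 22.1, 30.7 and 26.1 CPM and 38.5, 36.9, 39.5 and 37.6 CPM, and Spon1, a secreted matrix protein, at 59.1, 68.4, 74.9 and 55.3 CPM and 86.7, 82.5, 80.2 and 91.2 CPM. All 3 were higher in every PT-2385 library than in any vehicle library. Kidney also makes renin, and the part of the kidney transcripts of vehicle replicate 1 in these values was not tested. With vehicle replicate 3 left out Ren1, Tmem45a and Spon1 rose by 0.88, 0.72 and 0.48 (edgeR adjusted p = 0.00827, 0.00385 and 0.0141). Tle3, a corepressor, was at 109, 97.4, 140 and 116 CPM and 162, 152, 179.9 and 144 CPM, Hivep3, a zinc finger factor, at 15.3, 15.3, 23.8 and 17.5 CPM and 23.1, 26.8, 27.5 and 23.8 CPM, and Nolc1, a nucleolar phosphoprotein, at 72.04, 60.98, 103 and 69.96 CPM and 99.95, 86.2, 104 and 95.4 CPM. For Hivep3 and Nolc1 vehicle replicate 3 lay within the PT-2385 range, and all 3 rose without it, by 0.57, 0.66 and 0.51 (edgeR adjusted p = 0.0141, 0.0097 and 0.0141).

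The genes lower with the smallest p without vehicle replicate 3 include Trim12c and Samd9l. Trim12c, of the TRIM family, was at 30.8, 30.6, 24.1 and 33.8 CPM with vehicle and 20.8, 20.5, 16.6 and 20.4 CPM with PT-2385, and Samd9l, a factor that restricts poxviruses, at 32.3, 39.5, 24.8 and 33.6 CPM and 16, 19.97, 13.97 and 20.5 CPM. Both were without overlap, with vehicle replicate 3 the lowest vehicle library, and both fell without it, by 0.70 and 0.99 (edgeR adjusted p = 0.00827 and 0.0141). Kif13b, a kinesin, was at 78.1, 107, 56.3 and 88.6 CPM and 56.6, 59.8, 53.4 and 57.9 CPM, Pam, which amidates peptide hormones, at 250.2, 322, 197 and 289 CPM and 192, 206, 196 and 205 CPM, and Chek1, the S-phase checkpoint kinase, at 38.8, 43.4, 23.2 and 34.4 CPM and 26.4, 23.6, 24.7 and 28.6 CPM. In these 3 vehicle replicate 3 lay inside or at the edge of the PT-2385 range. Fyco1, an adaptor of autophagosome transport, was at 61.4, 73.3, 49.8 and 67.7 CPM and 43.4, 53.2, 46.8 and 46.2 CPM, and Rgs6, which turns off G-protein signals, at 7.96, 12.2, 4.63 and 9.19 CPM and 5.73, 4.203, 4.804 and 4.64 CPM. These 5 fell without vehicle replicate 3 (edgeR adjusted p = 0.0141 for each), with log2 fold changes of -0.68, -0.52, -0.59, -0.51 and -1.03.

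The transcripts of the target of the inhibitor and of its partners did not pass the test. Epas1 was at 166, 152, 190 and 175 CPM with vehicle and 164, 166, 164 and 166 CPM with PT-2385, a narrow band inside the vehicle range. Its log2 fold change was -0.05 (SE 0.072, edgeR adjusted p = 0.818) and 0.01 without vehicle replicate 3. Since PT-2385 acts on the protein, this transcript does not check the treatment. Hif1a was at 369.5, 299, 444 and 421 CPM and 430.5, 436, 489 and 369 CPM, with a log2 fold change of 0.17, and Arnt at 86.1, 79.5, 98.7 and 82.7 CPM and 83.9, 86.3, 93.6 and 87.7 CPM, with one of 0.02, whose sign turned when PT-2385 replicate 3 or vehicle replicate 2 or 4 was left out. Egln3, a hypoxia-induced prolyl hydroxylase, was at 19.9, 17.8, 22.8 and 24.01 CPM and 29.8, 26.7, 28.8 and 26.8 CPM, without overlap. It had a log2 fold change of 0.41 (edgeR adjusted p = 0.124) and rose without vehicle replicate 3 (0.0284). It was the single member of the 11 HIF subunit and oxygen-sensing genes to do so.

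Genes of glycolysis and HIF-1 were mostly positive in sign. Of 27 tested, 25 were positive, 12 were higher at an unadjusted p under 0.05 (against 5.71% of all genes tested) and none lower, 6 were higher without overlap (against 3.18%), and none was called by edgeR or DESeq2. The median was 0.21, which went to 0.13 without vehicle replicate 2 and 0.31 without vehicle replicate 3. Pfkfb3, which makes the activator of phosphofructokinase, was at 91.9, 89.9, 112 and 109.9 CPM with vehicle and 123, 125, 137 and 118 CPM with PT-2385. P4ha2, a collagen prolyl hydroxylase, was at 39.9, 31.9, 42.5 and 42.6 CPM and 50.5, 46.7, 46.8 and 48.6 CPM, and Hk2, a hexokinase, at 82.3, 74.8, 114 and 107 CPM and 119.9, 116, 147 and 115 CPM. In each the PT-2385 libraries lay above the vehicle range, and vehicle replicate 2 was the lowest of all 8. Slc2a1, the glucose carrier, was at 106, 76.2, 116 and 131 CPM and 157, 149, 151 and 133 CPM, and Slc16a3, the lactate exporter, at 117, 86.1, 142 and 151 CPM and 192, 173, 179 and 153 CPM. In the fit without vehicle replicate 3, 9 of the 27 rose (against 3.15% of all genes tested in that fit) and none fell, Pfkfb3 (log2 fold change 0.37, edgeR adjusted p = 0.0269) and P4ha2 (0.34, 0.0444) among them. Slc2a1, Slc16a3 and Hk2 did not pass there (adjusted p = 0.124, 0.12 and 0.0622).

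Genes thought to prefer HIF-2α went in no common direction. Of 17 tested, 6 were positive and the median was -0.01. At an unadjusted p under 0.05, 2 were higher (against 5.71% of all genes tested) and 2 lower (against 7.39%). None was called by edgeR and DESeq2 called 1 lower. Adm, the vasodilator adrenomedullin, was at 29.6, 39.3, 29.8 and 46.02 CPM with vehicle and 23.6, 24.4, 20.7 and 24.6 CPM with PT-2385, without overlap. Its log2 fold change was -0.63 (edgeR adjusted p = 0.116), and it fell without vehicle replicate 3 (-0.71, adjusted p = 0.0268). Tek, the endothelial angiopoietin receptor, was at 32.9, 49.8, 25.96 and 38.05 CPM and 27.04, 28.8, 23.9 and 26.4 CPM. It overlapped through vehicle replicate 3 and fell without it (-0.60, edgeR adjusted p = 0.0319). Cxcr4, a chemokine receptor of the list, lay the other way, at 77.99, 56.1, 81.8 and 98.96 CPM and 115, 112, 129 and 83.4 CPM, with a log2 fold change of 0.48 (edgeR adjusted p = 0.301).

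Genes of the ovulatory response to LH were positive in most members but were not called. The LH and EGF-like list had 15 of 21 positive (median 0.15), the progesterone receptor targets 15 of 16 (median 0.27) and the cumulus matrix 12 of 16 (median 0.26), with 0 calls in each by edgeR. At an unadjusted p under 0.05, 5, 4 and 7 members were higher (against 5.71% of all genes tested). At that threshold 0, 0 and 1 were lower (against 7.39%), and DESeq2 called 3, 1 and 2 higher. Without vehicle replicate 2 the medians were 0.03, 0.12 and 0.18, and that library was the lowest vehicle library for all 16 progesterone receptor targets.

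Adamts4, a protease that cuts versican in the cumulus matrix, was at 112, 88.5, 126 and 133 CPM with vehicle and 171, 162, 225 and 162 CPM with PT-2385. Tnfaip6, which links hyaluronan to protein chains, was at 29.99, 17.6, 40.6 and 38.8 CPM and 87.8, 44.9, 84.99 and 44.7 CPM. Ptgs2, the inducible prostaglandin synthase COX-2, was at 112, 61.05, 141 and 149 CPM and 236, 178, 296 and 142 CPM. Adamts4 and Tnfaip6 were without overlap, while PT-2385 replicate 4 fell inside the vehicle range for Ptgs2. Their log2 fold changes were 0.65 (SE 0.14), 1.04 (SE 0.34) and 0.88 (SE 0.33), with edgeR adjusted p of 0.116, 0.287 and 0.332. None passed without vehicle replicate 3 either (adjusted p = 0.0597, 0.163 and 0.212).

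The other cumulus genes described here were also highest in PT-2385 replicates 1 and 3. Has2, which makes hyaluronan, was at 3.01, 2.804, 4.27 and 3.26 CPM with vehicle and 6.32, 4.36, 5.41 and 3.48 CPM with PT-2385, and Ptx3, which cross-links it, at 7.02, 6.75, 8.33 and 7.05 CPM and 15.7, 9.37, 14.4 and 7.995 CPM. The EGF-like ligands Areg and Btc were at 3.202, 2.19, 4.03 and 3.66 and 20.3, 15.3, 25.5 and 25.5 CPM with vehicle and at 8.38, 3.702, 7.55 and 4.95 and 35.1, 30.7, 40.8 and 26.5 CPM with PT-2385. PT-2385 replicates 1 and 3 were the highest of all 8 for these 4 genes, and PT-2385 replicates 2 and 4 lay nearer to the vehicle range or inside it. Across the 8 cumulus markers the score was -0.03, -0.48, 0.35 and 0.23 in the vehicle libraries and 1.01, 0.46, 1.10 and 0.33 in the PT-2385 libraries. All 8 were positive, with a median of 0.77. At an unadjusted p under 0.05, 7 were higher (against 5.71% of all genes tested), and 2 were higher without overlap (against 3.18%). None was called by edgeR with or without vehicle replicate 3, and DESeq2 called 4 higher, among 105 higher over all genes. Il11, a cytokine of the IL-6 family, was at 7.12, 3.85, 11.7 and 10.6 CPM and 16.4, 12.3, 19.1 and 14.1 CPM, without overlap (log2 fold change 0.89, edgeR adjusted p = 0.268). Grem1, a BMP antagonist induced in cumulus cells, was at 4.01, 3.81, 6.09 and 4.78 CPM and 13.1, 8.45, 16.6 and 5.08 CPM, and the BMP target Id1 at 20.9, 21.9, 21.9 and 20.8 CPM and 17.8, 18.1, 16.3 and 18 CPM.

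Other secreted and matrix genes of the follicle had PT-2385 values above most vehicle values. Timp1, an inhibitor of matrix metalloproteinases, was at 659, 592, 877 and 930.2 CPM with vehicle and 1105, 954, 1086 and 893 CPM with PT-2385. Spp1, the secreted matrix protein osteopontin and 1 of the 15 most abundant genes per kilobase, was at 1285, 1009, 1886 and 1965 CPM and 2567, 2203, 3128 and 2502 CPM. Srgn, the proteoglycan core of secretory granules, was at 81.1, 61.5, 102 and 102 CPM and 166, 142, 181 and 142 CPM, and Sfrp2, a secreted modulator of WNT, at 31.4, 23.5, 58.7 and 43.9 CPM and 87.7, 60.7, 94.3 and 66.6 CPM. Spp1, Srgn and Sfrp2 were without overlap between the groups, while Timp1 overlapped in PT-2385 replicate 4. Srgn rose without vehicle replicate 3 (log2 fold change 0.95, edgeR adjusted p = 0.0357), and Spp1, Sfrp2 and Timp1 did not pass there (adjusted p = 0.0709, 0.0583 and 0.0927). Mmp11, the metalloproteinase stromelysin-3, lay the other way, at 162, 143, 143 and 136 CPM and 106, 114, 104 and 126 CPM, and fell without vehicle replicate 3 (-0.38, edgeR adjusted p = 0.0268). Over the 20 proteases and inhibitors, 13 were positive (median 0.15). In that fit 1 rose (against 3.15% of all genes tested there) and 2 fell (against 2.59%). With all 8 libraries edgeR called none and DESeq2 called 1 lower. At an unadjusted p under 0.05, 4 were higher (against 5.71% of all genes tested) and 3 lower (against 7.39%).

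Prostaglandin genes other than Ptgs2 were measured next. Ptges, which makes prostaglandin E2, was at 69.1, 66.5, 69.2 and 65.3 CPM with vehicle and 53.7, 56.1, 45.7 and 58.1 CPM with PT-2385. Its log2 fold change was -0.34 (edgeR adjusted p = 0.116), and it fell without vehicle replicate 3 (-0.32, adjusted p = 0.0327). Ptgfr, the luteal receptor for prostaglandin F2α, was at 302, 610.1, 169 and 420.5 CPM and 181, 231, 128 and 147 CPM, with the highest value in vehicle replicate 2 and with vehicle replicate 3 below 2 of the PT-2385 libraries. Of the 18 genes of the list 10 were positive and the median was 0.06. None was called by edgeR and DESeq2 called 1 lower. At an unadjusted p under 0.05, 3 were higher (against 5.71% of all genes tested) and 4 lower (against 7.39%).

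Steroidogenic genes were dominated by spread within the groups. Hsd3b1, which makes progesterone, was at 3069, 5203, 2343 and 3531 CPM with vehicle and 2295, 2546, 1959 and 2293 CPM with PT-2385, and Hsd17b7, an estradiol-forming enzyme of luteal cells, at 809, 1619, 463 and 1109 CPM and 487, 629.9, 386 and 431 CPM. Both were highest in vehicle replicate 2, and vehicle replicate 3 lay within the PT-2385 range. Hsd3b1 fell without vehicle replicate 3 (-0.79, edgeR adjusted p = 0.033) and Hsd17b7 did not pass (0.0527). Cyp17a1, which makes androgens in theca cells, was at 10.9, 20.4, 13.7 and 11.5 CPM and 36.01, 23.9, 22.2 and 16.1 CPM. Cyp19a1, the granulosa aromatase, was at 6.76, 24.98, 12.5 and 19.2 CPM and 51.5, 31.3, 44.5 and 4.01 CPM, with PT-2385 replicate 4 the lowest of all 8 and the other 3 PT-2385 libraries the highest. Inhba, the activin and inhibin βA chain, had the same outlying library, at 149.5, 257, 239.6 and 203 CPM and 408, 384, 409.5 and 112 CPM. Over the 17 steroidogenic genes the median was 0.11, and neither edgeR nor DESeq2 called any. At an unadjusted p under 0.05, 5 were higher (against 5.71% of all genes tested) and 2 lower (against 7.39%). Luteal markers summed to 11010 to 18430 CPM with vehicle and to 11060 to 12210 CPM with PT-2385, the highest value in vehicle replicate 2. Of the 25 inhibin, activin, BMP and AMH genes 14 were positive (median 0.02), and neither tool called any. At an unadjusted p under 0.05, 4 were higher (against 5.71%) and 2 lower (against 7.39%). Bmp6, a BMP ligand at 38.1, 35.9, 29.6 and 37.4 CPM and 29.6, 26.8, 27.1 and 30.6 CPM, fell without vehicle replicate 3 (-0.38, edgeR adjusted p = 0.021). The 26 cholesterol genes had a median of -0.02, with 3 higher at an unadjusted p under 0.05 (against 5.71%) and no call by either tool.

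Vessel genes were negative in sign in most members, and vehicle replicate 2 held the top values. Of 14 endothelial markers 13 were negative (median -0.16), and 6 were lower at an unadjusted p under 0.05 (against 7.39% of all genes tested). None of these markers was called by edgeR with all 8 libraries, and DESeq2 called 1 lower. Vehicle replicate 2 was the highest vehicle library for 13 of them and vehicle replicate 3 the lowest for 11. Flt4, the receptor VEGFR3, was at 55.2, 69.2, 52.01 and 57.3 CPM with vehicle and 44.5, 47.4, 44.6 and 49.2 CPM with PT-2385, and Tie1 at 52.8, 71.5, 46.9 and 56.7 CPM and 47.8, 47.2, 41.95 and 42.6 CPM. Both fell without vehicle replicate 3 (edgeR adjusted p = 0.0266 and 0.0333), by 0.38 and 0.43 on the log2 scale. Rgs5, a pericyte gene, was at 149, 222, 103 and 172 CPM and 115, 124, 109 and 119 CPM, and Notch3, the Notch receptor of mural cells, at 73.98, 96.2, 59.9 and 78.1 CPM and 55.1, 62.7, 52.9 and 66.03 CPM. These overlapped through vehicle replicate 3 and fell without it (edgeR adjusted p = 0.0268 and 0.0305). Angpt1, the TEK ligand that pericytes release, was at 19.7, 32.8, 14.5 and 21.1 CPM and 12.8, 15.2, 9.08 and 13.5 CPM and did not pass (edgeR adjusted p = 0.242, and 0.0539 without vehicle replicate 3), and neither did the endothelin receptor Ednrb (46.03, 58.96, 42.6 and 44.6 CPM and 33.7, 42.99, 34.6 and 37.1 CPM). Sema3d, a guidance ligand, was at 48, 87.9, 32.6 and 66.9 CPM and 23.9, 29.04, 24.8 and 17.6 CPM, without overlap, and fell without vehicle replicate 3 (-1.51, edgeR adjusted p = 0.0333). Over the 25 VEGF and angiopoietin genes the median was -0.12, and -0.06 without vehicle replicate 2. None was called by edgeR with all 8 libraries, and DESeq2 called 3 lower. At an unadjusted p under 0.05, 2 were higher (against 5.71% of all genes tested) and 6 lower (against 7.39%).

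Stress genes of the endoplasmic reticulum were positive in most members. Of 26 unfolded protein stress genes 24 were positive (median 0.10). At an unadjusted p under 0.05, 7 were higher (against 5.71% of all genes tested) and none lower (against 7.39%). Herpud1, which helps clear misfolded proteins, was at 43.4, 37.1, 40.7 and 37.3 CPM with vehicle and 58.5, 46.1, 59.8 and 65.8 CPM with PT-2385. Dnajb9, a co-chaperone, was at 66.1, 54.8, 58.9 and 60.6 CPM and 74.7, 69.2, 80.4 and 86.4 CPM, and Xbp1, the factor whose splicing reports this stress, at 138, 113, 139 and 129 CPM and 147, 146, 164 and 171 CPM. All 3 were without overlap and rose without vehicle replicate 3 (edgeR adjusted p = 0.0293, 0.0327 and 0.0446). None passed with all 8 libraries (adjusted p = 0.0654, 0.108 and 0.215), and DESeq2 called 2 members. Of 20 heat shock genes 18 were positive (median 0.15), and 7 were higher at an unadjusted p under 0.05 (against 5.71% of all genes tested). Of these 20 none was called by edgeR and DESeq2 called 1. Hsph1, a partner of HSP70, was at 141, 114, 151 and 118 CPM and 169, 151, 204 and 232 CPM, with PT-2385 replicate 2 about level with vehicle replicate 3 (log2 fold change 0.53, edgeR adjusted p = 0.178).

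Smaller lists were mixed. Among 26 splicing regulators the median was 0.03: Tra2a was at 80.9, 72.8, 75.8 and 73.9 CPM with vehicle and 94.2, 83.7, 99.6 and 98.5 CPM with PT-2385, and Srsf7 at 119.8, 112, 120.3 and 115 CPM and 140.1, 127, 138 and 137 CPM. Both are splicing activators, both were without overlap, and both rose without vehicle replicate 3 (log2 fold changes 0.31 and 0.24, edgeR adjusted p = 0.0305 and 0.0377). Among the 25 immediate early genes the median was 0.17, and PT-2385 replicate 4 was the lowest PT-2385 library for 23. Fosb, an AP-1 subunit, was at 15.4, 15.3, 16.1 and 16.04 CPM with vehicle and 30.3, 27.99, 32.5 and 5.02 CPM with PT-2385: 3 PT-2385 libraries lay above all vehicle libraries and replicate 4 below them. Dusp1, a MAP kinase phosphatase, lay lower in all 4 PT-2385 libraries, at 87.9, 94.2, 70.2 and 79.1 CPM and 63.7, 66.3, 54.7 and 47.5 CPM, and fell without vehicle replicate 3 (-0.59, edgeR adjusted p = 0.0268).

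Fatty acid genes of the PPAR list were negative in 19 of 24 (median -0.10), with none called by edgeR and 2 called lower by DESeq2. At an unadjusted p under 0.05, 2 were higher (against 5.71% of all genes tested) and 5 lower (against 7.39%). Ehhadh, a peroxisomal enzyme of fatty acid oxidation, was at 4.82, 4.63, 3.88 and 4.04 CPM with vehicle and 2.54, 2.89, 2.58 and 3.07 CPM with PT-2385, and Cd36, a fatty acid carrier, at 31.9, 32.2, 25.8 and 29.7 CPM and 24.4, 24.9, 19.8 and 22.3 CPM. Both were without overlap and fell without vehicle replicate 3 (edgeR adjusted p = 0.0268 and 0.0212). Cell cycle genes were positive in 27 of 30 (median 0.13, and 0.07 without vehicle replicate 2), with vehicle replicate 2 the lowest vehicle library for 28 and vehicle replicate 3 the highest for 21. Cdkn1a, the cyclin kinase inhibitor p21, was at 109, 79.96, 159.9 and 129.7 CPM and 184, 151, 197 and 158 CPM. Ribosomal protein genes had a median of 0.05 over 39, nuclear-encoded oxidative phosphorylation genes 0.00 over 36. No gene of either list was called by edgeR or DESeq2, and 1 of them was past an unadjusted p of 0.05 (against 13.1% of all genes tested). Mitochondrial transcripts had a median of -0.09, which turned to 0.09 without vehicle replicate 2 and went to -0.21 without vehicle replicate 3. The noncoding RNA list likewise went from -0.03 to 0.08 and to -0.15.

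**Figure D5:**
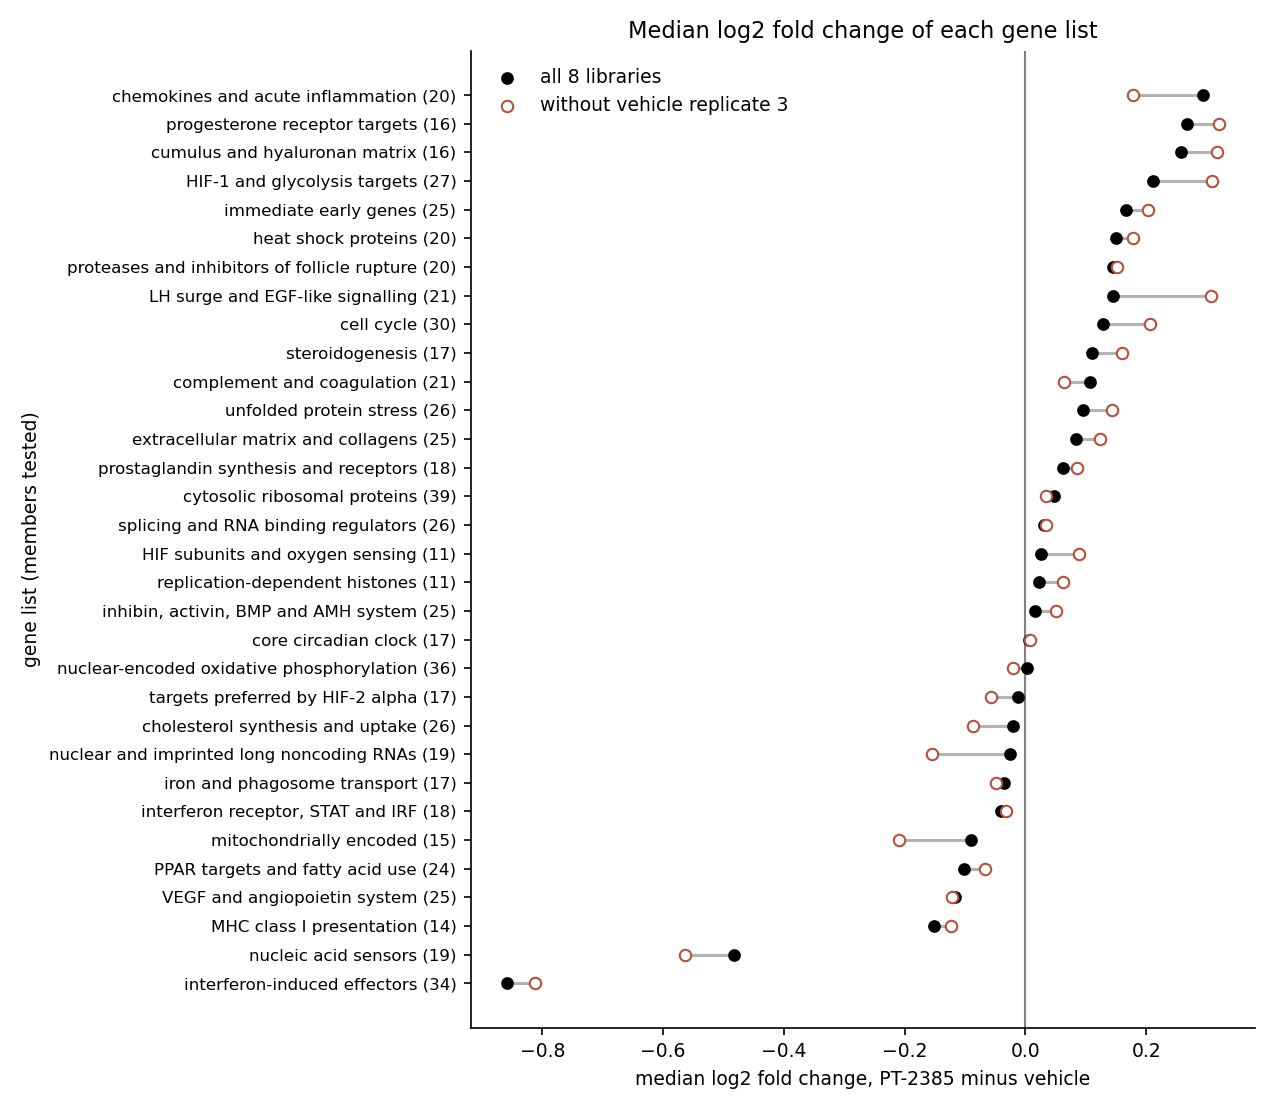
Median log2 fold change (PT-2385 over vehicle) of each gene list with all 8 libraries and without vehicle replicate 3, 1 row per list with its members tested in brackets. The interferon effectors (-0.86 and -0.81) and the nucleic acid sensors (-0.48 and -0.56) are the lowest lists in both fits, and most other medians lie between -0.2 and 0.4.

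Across the transcriptome most differences were small. The median absolute log2 fold change over the 18125 genes was 0.12, and 49.3% of genes were positive. Among 11685 genes of at least 5 CPM, 4 were at least 2-fold higher and 26 at least 2-fold lower. The 4 PT-2385 values lay all above or all below the 4 vehicle values in 1260 genes (6.95%), and in 4131 of 18481 (22.4%) without vehicle replicate 3. Smaller groups lie apart more readily, and leaving out any other single library gave 1544 to 2150 such genes. The median SD within a group was 0.43 on the log2 scale for genes under 1 CPM, 0.25 from 1 to 10 CPM, 0.11 from 10 to 100 CPM and 0.11 above. Called genes came from the middle classes: 0 of 3159, 3 of 4767, 6 of 7937 and 0 of 2262. Of the 15 most abundant genes per kilobase of exon none was called. They included Cyp11a1 (2987 CPM per kilobase), Hsd3b1 (1566), mt-Co1 (8652), Eef1a1 (2806) and Spp1 (1255).

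Several genes spread widely within a group. Gm42047, a lincRNA on chromosome 8 (122560392 to 122567917, plus strand), was at 46.8, 42.1, 48.6 and 54.3 CPM in the vehicle libraries and at 22.1, 3.78, 2.99 and 3.95 CPM in the PT-2385 libraries. The groups were far apart, but PT-2385 replicate 1 stood well above its group, and the log2 fold change of -2.68 (SE 0.62) did not pass (edgeR adjusted p = 0.2, and 0.0946 without vehicle replicate 3). Its neighbours Klhdc4, 4084 bases away, and Slc7a5, 39972 bases away, had log2 fold changes of 0.16 and 0.08 (edgeR adjusted p = 0.447 and 0.672). Postn, a matricellular protein of stroma, ran from 29.7 to 81.98 CPM with vehicle and from 27.4 to 168 CPM with PT-2385. Plin4, a lipid droplet protein, ran from 101 to 380.1 CPM and from 36.3 to 113 CPM, with the highest value in vehicle replicate 2, and Car3, an enzyme abundant in fat and muscle, from 0.356 to 20.9 CPM and from 1.22 to 7.26 CPM, also with the highest in that library.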

How the data were processed

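The deposited values are raw counts of read pairs per gene. Per the file headers, the authors counted them with featureCounts 2.0.6 over the exons of the basic GENCODE M27 annotation. The genome was GRCm39 and the tools included FastQC and STAR, according to the submitters' processing notes. The sources used here give no versions for these. The counting command sets no strandedness, so genes overlapping on opposite strands cannot be told apart. Exon bases were shared with another model by 229 of 825 genes looked at, and by 45 of them over 20% or more of their length. The RNA was polyA selected from column-purified ovary RNA, per the labels' protocols. Coordinates are those of the count files (GRCm39). Symbols came from GENCODE M21 by identifier, which covered 52083 of 55359 identifiers (94.1%), and 67 tested genes had none.

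The 8 ovary libraries were fitted without kidney by the robust quasi-likelihood test of edgeR 4.0.16 (R 4.3.3) after TMM scaling, with 6 residual degrees of freedom. Genes passed filterByExpr (count 10, total 15), which left 18125. P-values were adjusted by Benjamini-Hochberg over all genes tested and called under 0.05. Log2 CPM used a prior count of 2. A gene does not overlap where all 4 values of one group lie above all 4 of the other. The fit across genes was also run on simulated counts, and no outcome of that run is given here. Lists were described by counts and medians, with no test, and a gene could be a member of more than 1 list. Alternatives were other scalings, DESeq2 1.42.0, limma-voom (limma 3.58.1) with and without sample weights, other filters, a replicate block, 1 surrogate variable (sva 3.50.0), all 16 libraries, no mitochondrial or haemoglobin genes, and each library left out. Leaving out vehicle replicates 2 and 3 together, and vehicle replicate 3 with another scaling, were added after the data were seen.

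The 32 gene lists, the 18 marker lists (818 of 832 symbols matched) and the genes described were chosen with earlier results of these data known. Genes were named as follows: HIF subunits, called genes, up to 5 members of each list by smallest p, the 12 smallest p in each direction without vehicle replicate 3 (at least 2 CPM), the 15 most abundant per kilobase, the 12 of widest spread, and the largest fold changes without overlap (at least 5 CPM). Other list members were added for their role, after their values were seen. Not every gene that these rules select is reported here. Promoters are RefSeq windows of GRCm38.p6. Figures used matplotlib 3.10.9.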

Additional observations from a re-analysis of the deposited data

Results flagged for a closer look

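A library counted as far from its group when its gap to the nearest of the 3 others, divided by the range of the group, passed Dixon's critical value for 4 samples. This held for 21 of 334 groups of values checked, and chance gives about 1 in 20. Each is given as a value with no explanation.

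Vehicle replicate 1 held 1005 counts of Kap against 4 to 24 in the other vehicle libraries, 324 counts of Slc34a1 against 1 to 3, and 122 counts of Umod against 0 to 1, all genes of the kidney tubule. Vehicle replicate 2 held 26.1 CPM of the oviduct gene Ovgp1 against 0.636 to 1.53 CPM. Vehicle replicate 3 had 33.6 M assigned read pairs against 29.5 to 29.8 M. It held 9.84 CPM of the water channel Aqp5 against 6.21 to 6.41, and 6.63 CPM of the imprinted gene Mest against 21.7 to 23. Its score over the extracellular matrix list was 0.162 against -0.0617 to -0.0408, and over nuclear and imprinted noncoding RNAs -0.453 against 0.132 to 0.196.

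In the PT-2385 group, replicate 1 held 22.1 CPM of the lincRNA Gm42047 against 2.99 to 3.95 in the others, and 59.2 CPM of the imprinted noncoding RNA Kcnq1ot1 against 46.1 to 46.4. Its scores were 0.0641 over nuclear-encoded oxidative phosphorylation genes (others -0.0293 to -0.0154) and 0.129 over mitochondrial transcripts (others -0.124 to -0.086). PT-2385 replicate 3 held 16.6 CPM of the TRIM gene Trim12c against 20.4 to 20.8, and 147 CPM of the hexokinase Hk2 against 115 to 119.9. It held 225 CPM of the versican protease Adamts4 against 162 to 171, and 16.3 CPM of the BMP target Id1 against 17.8 to 18.1. PT-2385 replicate 4 held 7.37 CPM of the interferon-induced Xaf1 against 4.44 to 4.78, and 112 CPM of the activin chain Inhba against 384 to 409.5. It held 5.02 CPM of the AP-1 gene Fosb against 27.99 to 32.5, and its score over the core clock genes was -0.0763 against 0.0389 to 0.0475.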

How the results depend on the processing

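The count of 9 called genes (1 higher, 8 lower) was the same with RLE, upper-quartile or legacy settings and without mitochondrial and haemoglobin genes. Other settings moved it. The counts in all, higher and lower were 293, 105 and 188 with DESeq2, 3, 0 and 3 with limma-voom (1092 higher at an unadjusted p under 0.05), and 189, 61 and 128 with limma-voom and sample weights. They were 63, 19 and 44 with no filter, 5, 0 and 5 with a filter of 1 CPM in 4 libraries (879 higher at an unadjusted p under 0.05), 33, 15 and 18 with 1 surrogate variable, and 364, 120 and 244 with all 16 libraries in the fit. Leaving out 1 library gave 0 to 1060 in all, 0 to 582 higher and 0 to 478 lower. Without vehicle replicates 2 and 3 they were 246, 80 and 166, and without vehicle replicate 3 under RLE scaling 1023, 542 and 481. Genes without overlap numbered 1544 to 4131 with 1 library left out, 4920 without vehicle replicates 2 and 3, and 4101 without vehicle replicate 3 under RLE scaling.

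No label says that a replicate number marks a shared animal, litter or day. Replicate numbers are those of the sample titles, and the deposited file of vehicle replicate 3 carries another number. Pairing by title number, as below and in the replicate block, sets that library beside PT-2385 replicate 3. Same-numbered libraries had correlations of departures of -0.015, 0.207, 0.236 and -0.172, and 2 of 4 vehicle libraries correlated best with their own number. These values do not decide whether the samples were paired. The fit with a replicate block called 398 genes, 132 higher and 266 lower.

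Of 119 genes described with a test, the fold changes of 2, Epas1 and Arnt, reversed, in 6 cases in all and each close to 0. With 1 library left out, the log2 fold change of Epas1 ran from -0.0985 to 0.00871 (positive without vehicle replicate 3, and 0.0129 there under RLE scaling). The log2 fold change of Arnt ran from -0.0212 to 0.0882, negative without vehicle replicate 2 or 4 (-0.00357 for the latter) or PT-2385 replicate 3 (-0.00646), and was -0.0687 with 1 surrogate variable. List medians moved by more than the spread in 4 cases: HIF-2 targets to -0.11 without vehicle replicates 2 and 3, the inhibin and BMP list to 0.11 without vehicle replicate 1, noncoding RNAs to 0.30 with 1 surrogate variable, and histones to -0.25 with the filter of 1 CPM. Calls of 5 of the genes described were lost with limma-voom and of 3 with the filter of 1 CPM. Removing vehicle replicate 1, vehicle replicate 4, or PT-2385 replicate 1, 2 or 3 lost 8 calls each. The cause was not tested. Depth limits the 3159 genes under 1 CPM, whose median spread was 0.43 on the log2 scale.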

Other observations

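Genes of clotting and its control stood among the positive members of lists with no call. F3, the tissue factor that starts coagulation, was at 151, 107, 171 and 207 CPM in vehicle replicates 1 to 4 and 258, 212, 253 and 225 CPM in PT-2385 replicates 1 to 4. Thbd, the thrombin receptor that restrains it, was at 115, 88.2, 133 and 121 CPM and 138, 139.9, 163 and 129.6 CPM. Every PT-2385 value of F3 lay above every vehicle value, while Thbd overlapped through vehicle replicate 3. The log2 fold changes were 0.57 and 0.32 (edgeR adjusted p = 0.215 and 0.28). Fgb, a fibrinogen chain, was near the limit of counting at 0.226, 0.293, 0.242 and 0.0339 CPM and 0.709, 1.08, 0.646 and 0.4703 CPM, and rose without vehicle replicate 3 (1.91, edgeR adjusted p = 0.0381). Over the 21 complement and coagulation genes tested, 12 were positive and the median was 0.11. At an unadjusted p under 0.05, 3 were higher (against 5.71% of all genes tested) and 1 lower (against 7.39%), and DESeq2 called 2 higher. Of 20 chemokine and acute inflammation genes 16 were positive (median 0.30, and 0.17 without vehicle replicate 2), and neither edgeR nor DESeq2 called any. At an unadjusted p under 0.05, 7 were higher (against 5.71%) and 1 lower (against 7.39%). Il1rn, the natural blocker of the interleukin-1 receptor, was at 1.58, 1.47, 1.64 and 1.83 CPM and 2.54, 2.27, 3.55 and 2.29 CPM, without overlap (edgeR adjusted p = 0.19). Cx3cr1, the fractalkine receptor of monocytes, was at 7.505, 9.098, 6.24 and 6.21 CPM and 5.67, 5.28, 3.35 and 6.08 CPM, also without overlap and in the other direction (edgeR adjusted p = 0.281).

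Core clock genes were mixed in sign. Arntl, the activator BMAL1, was at 54.8, 48.95, 57.8 and 54.5 CPM with vehicle and 67.3, 65.5, 72.5 and 65.5 CPM with PT-2385, and the repressor Cry1 at 46.2, 33.9, 49.3 and 43.6 CPM and 53.2, 50.8, 59.9 and 51.7 CPM. Both were without overlap and both rose without vehicle replicate 3 (0.36 and 0.39, edgeR adjusted p = 0.0205 and 0.0485). Bhlhe40, a repressor that hypoxia also induces, was at 185, 139, 223 and 208 CPM and 269, 229.6, 284 and 241 CPM (edgeR adjusted p = 0.214). Of the 17 clock genes 9 were positive, and the median was 0.01. At an unadjusted p under 0.05, 4 were higher (against 5.71% of all genes tested) and 3 lower (against 7.39%). Without overlap, 4 were higher (against 3.18%) and 1 lower (against 3.77%). With all 8 libraries edgeR called none and DESeq2 called 1 higher. Without vehicle replicate 3, edgeR called 2 higher (against 3.15% of all genes tested in that fit). Tra2b, a splicing activator, was at 149, 131, 172 and 143 CPM and 176, 164, 195 and 178 CPM and rose without vehicle replicate 3 (edgeR adjusted p = 0.0263), while Clk1, a kinase of splicing factors, was at 115, 127, 93.7 and 109 CPM and 99.95, 95.3, 79.01 and 83.1 CPM and fell without it (0.0298). Nr4a3, an immediate early nuclear receptor, was at 9.802, 8.94, 13.1 and 11.3 CPM and 23.5, 16.6, 25.6 and 9.41 CPM, with PT-2385 replicate 4 inside the vehicle range and the other PT-2385 libraries above it. Collagens and other matrix genes were positive in 18 of 25 (median 0.08), and 11 replication-dependent histone genes had a median of 0.02, with no call in either list. Cpt2, a mitochondrial enzyme of fatty acid oxidation, was at 46.9, 58.8, 53.98 and 53.3 CPM and 44.99, 46.4, 43.04 and 43.3 CPM and did not pass (edgeR adjusted p = 0.198, and 0.0604 without vehicle replicate 3).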
